A study of Mus musculus with 6 samples.

Results

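Glycolysis turns glucose into pyruvate and lactate, and the hypoxia response adjusts this pathway to the oxygen supply of a cell. Expression of 36 genes of both systems was examined in primary brite adipocytes after knockdown of the long noncoding RNA *Ctcflos*. The genes are a list of glycolytic enzymes and of targets and factors of the hypoxia-inducible factors (HIF), and all 36 of them were among the 52089 gene symbols of the deposited expression table. The list was drawn up by name and function and not by a threshold on the measured values, but with earlier results of these data known. The 3 *Ctcflos* KD libraries and the 3 control libraries came from preadipocytes of the stromal vascular fraction of inguinal white adipose tissue of 129SvEv mice, after 2 days of induction and 1 day of differentiation with rosiglitazone, the agonist that drives browning. Both groups were reverse transfected with an LNA gapmer at 50 nM, an antisense oligonucleotide that directs cleavage of the RNA it binds. The KD group received ASO1 against *Ctcflos* transcript 1, the control group a nontargeting oligonucleotide (NC ctrl), and RNA was harvested 24 h later. Total RNA libraries were sequenced in 150 bp paired-end reads and expression was given as RPKM, a read number corrected for transcript length and for the mapped reads of each library. The labels do not say whether the 3 libraries of a group are separate cultures or animals, and all p-values measure only the spread between these libraries.

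In glycolysis, glucose enters through transporters, is phosphorylated by hexokinase, committed by phosphofructokinase and split by aldolase, and the lower enzymes yield pyruvate, which lactate dehydrogenase turns into lactate for export. HIF is a dimer whose oxygen-labile alpha subunit is hydroxylated by prolyl hydroxylases when oxygen is plentiful and then degraded. When oxygen is scarce the alpha subunit persists, binds hypoxia response elements in DNA and raises the transcription of most glycolytic enzymes, of *Vegfa* and *Adm*, and of its own hydroxylases. In thermogenic adipocytes, glucose uptake and lactate release accompany heat production.

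The hypoxia response element has the core ACGTG or GCGTG. These letters were searched on both strands in the promoters of the RefSeq set of GRCm38.p6, 250 bases before to 50 bases after each start. The set held 49 promoters of 34 of the 36 genes, *Ndrg1* and *Epas1* not being among them. At least one of both cores was in 79.6% of these promoters, beside 63.5% of the 8827 promoters of genes expressed at a mean of at least 1 RPKM and 43.8% of all 32851 promoters. ACGTG, with or without GCGTG, was in 53.1% of the promoters of the list, 26.7% of those of expressed genes and 19.6% of all. GCGTG, with or without ACGTG, was in 57.1, 51.8 and 32.4%. *Eno2*, *Gpi1* and *Tpi1* had no match in this window, which says only that these letters are not there. ACGTG is contained in the E-box CACGTG, which other factors bind, and in 6 of the 26 promoters with ACGTG it lay in an E-box. The matches marked below for *Bnip3* and *Ldha* lie in an E-box. The first 7 windows below belong to genes that varied most between libraries of one group or are textbook HIF targets, and the last 3 to genes with values separate between KD and control. Each is written 5′ to 3′ on the strand of the gene and lies wholly before the start, the capitals mark one core match, on the opposite strand where they read CACGC, and further cores can stand in lower case.
*Egln3*, chr12:54204081-54204121, minus strand: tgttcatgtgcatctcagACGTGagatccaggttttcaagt
*Ankrd37*, chr8:45999851-45999874, minus strand: acatgtcagtgtttgggtACGTGa
*Slc16a3*, chr11:120949022-120949062, plus strand: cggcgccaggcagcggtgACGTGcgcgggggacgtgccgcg
*Slc2a1*, chr4:119108691-119108731, plus strand: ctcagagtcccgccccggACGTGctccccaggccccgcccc
*Bnip3*, chr7:138909591-138909631, minus strand: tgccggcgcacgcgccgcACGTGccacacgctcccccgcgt
*Ldha*, chr7:46845739-46845779, plus strand: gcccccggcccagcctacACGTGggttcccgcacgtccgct
*Pgk1*, chrX:106186932-106186972, plus strand: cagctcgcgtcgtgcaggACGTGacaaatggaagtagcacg
*Hif1a*, chr12:73907779-73907819, plus strand: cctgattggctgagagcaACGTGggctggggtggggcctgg
*Ldhb*, chr6:142508061-142508101, minus strand: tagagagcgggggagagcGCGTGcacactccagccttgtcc
*Adm*, chr7:110627585-110627625, plus strand: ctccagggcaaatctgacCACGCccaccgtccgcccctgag
Only windows with a match are shown. *Hif1a* and *Ldhb*, which varied less between libraries of one group than the first 7 genes, carried the core letters too. *Adm* varied more than *Hif1a* and *Ldhb*, between 4.53 and 9.18 RPKM in the KD libraries. A match is a description of sequence, not a binding site or a cause.

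*Ctcflos*, listed as 1300015D01Rik, had 0.0969, 0.0705 and 0.210 RPKM in KD replicates 1 to 3 and 0.748, 0.751 and 0.840 RPKM in the controls, so that 16.1% of the mean remained. Depth, recovered from the values, was 60.7 to 75.4 mio mapped reads in KD and 62.8 to 78.9 mio in control libraries. All 7 adipocyte markers examined had a mean of at least 1 RPKM, and their summed RPKM was 4092 to 5417 in KD and 5542 to 6256 in controls. *Fabp4* made up most of this sum, with 2828.5 to 3574.1 RPKM in KD and 3682.2 to 4243.5 RPKM in controls. Markers of endothelium (4 genes, summed 0.647 to 1.35 RPKM) and epithelium (4 genes, 0.0593 to 0.416 RPKM) were near 0 in every library. In bulk RNA, fewer cells of a type and less RNA per cell cannot be told apart.

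The genes of the list varied widely between libraries of one group. KD replicate 3 was the lowest KD library and control replicate 2 the lowest control for 28 of the 31 genes with a mean of at least 1 RPKM. Both held for 27.7% of all 11701 genes at that level. The exceptions were *Hif1a*, *Epas1* and *Ldhb*. No gene of the list had its highest value in both of these libraries. On the log2(RPKM + 1) scale, KD replicate 3 was below the mean of the other KD libraries by a median difference of -0.91 over the 31 genes and -0.06 over all genes, and control replicate 2 below the other controls by -0.64 and -0.06. The median SD within a group was 0.54 in KD and 0.38 in controls for the 31 genes, and 0.17 and 0.10 for all genes. These libraries were at opposite ends of the depth, with 60.7 mio reads for KD replicate 3, the least of all, and 78.9 mio for control replicate 2, the most of all.

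**Figure D1:**
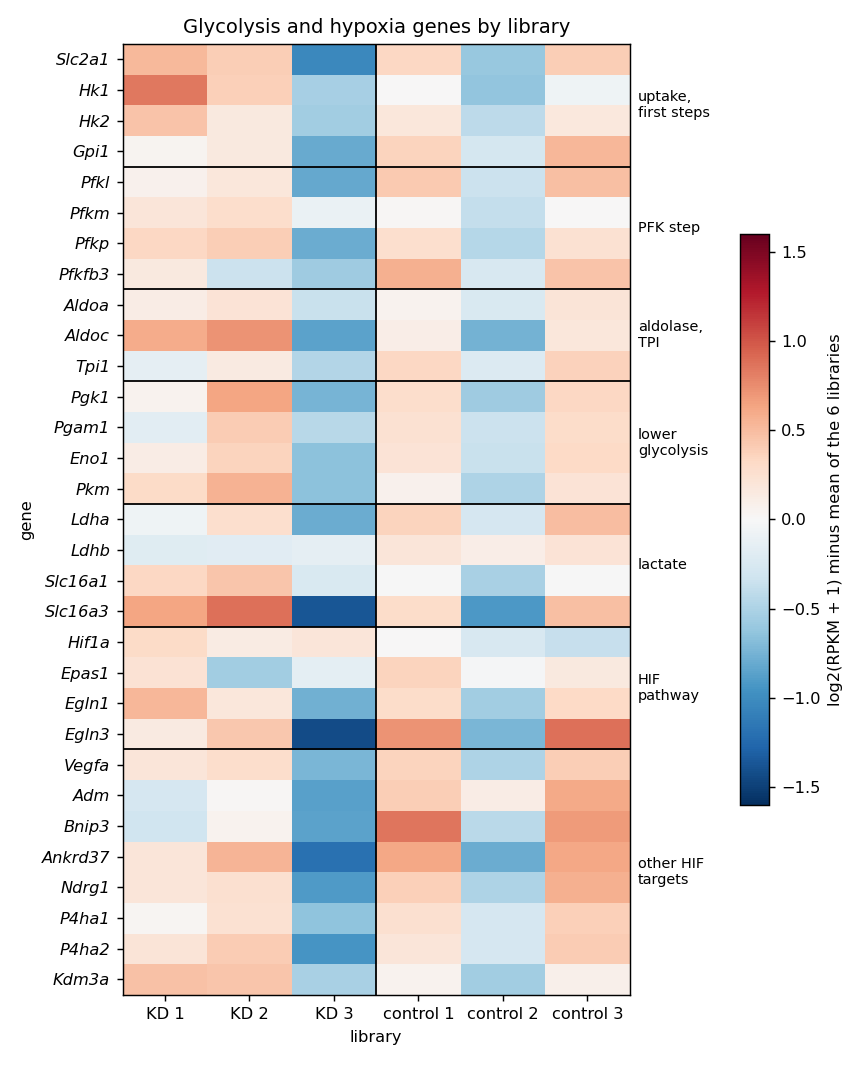
Heat map of the 31 genes with a mean of at least 1 RPKM (rows, in order of their roles) in the 6 libraries (columns), coloured by log2(RPKM + 1) minus the mean of the gene over the 6 libraries. KD 3 and control 2 hold the lowest value of their group in 28 of 31 rows, all but *Ldhb*, *Hif1a* and *Epas1*.

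*Ankrd37*, a HIF target with ankyrin repeats, was expressed at 3.27, 4.45 and 0.626 RPKM in KD replicates 1 to 3 and at 4.75, 1.16 and 4.72 RPKM in the controls, so that KD replicate 3 had 16.2% of the mean of the other KD libraries and control replicate 2 had 24.5% of that of the other controls. *Slc16a3*, the lactate exporter MCT4, had 18.9, 22.6 and 3.96 RPKM in KD and 14.8, 5.82 and 17.0 RPKM in control libraries. *Egln3*, a prolyl hydroxylase that is itself a HIF target, had 18.4, 22.5 and 5.48 RPKM in KD and 27.7, 9.53 and 31.2 RPKM in control libraries. In these 3 genes the groups overlapped, with the same library lowest in each group. *Slc2a1*, the basal glucose transporter GLUT1, had the same libraries lowest, with 16.1, 14.5 and 4.81 RPKM in KD and 14.0, 6.77 and 14.5 RPKM in control libraries. *Aldoa*, the most abundant of the 36 genes per length, kept 69.6% in KD replicate 3 and 77.0% in control replicate 2. Over the 31 genes the median share was 51.7% in KD replicate 3 and 59.5% in control replicate 2.

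**Figure D2:**
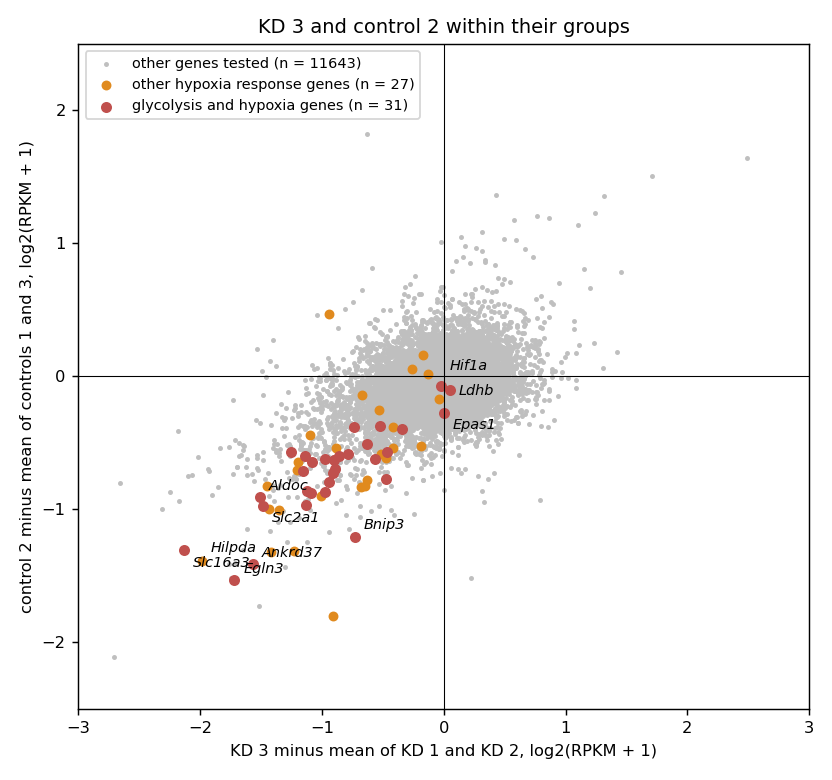
Each point is 1 of 11701 genes, with KD 3 minus the mean of KD 1 and KD 2 on the x axis and control 2 minus the mean of controls 1 and 3 on the y axis, both as log2(RPKM + 1). The 31 genes of glycolysis and hypoxia (red) and 27 other hypoxia response genes (orange) lie mostly in the lower left quadrant, where both libraries are below the rest of their group, while *Hif1a*, *Ldhb* and *Epas1* lie near 0 on the x axis.

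The plot of KD replicate 3 against control replicate 2 shows the same pattern in hypoxia response genes beyond the list. Of 27 other hypoxia response genes at this level, 23 were lowest in both libraries, beside 27.7% of all genes. Of 16 other genes of glucose metabolism, 5 were lowest in both, which is near that share. The median share of these 16 genes was 99.6% in KD replicate 3 and 84.5% in control replicate 2. *Hilpda*, a lipid droplet protein and HIF target, had 38.1, 40.0 and 9.11 RPKM in KD and 21.1, 7.83 and 23.2 RPKM in control libraries. *Pdk1*, the kinase that closes the entry of pyruvate into mitochondria, had 14.6, 17.6 and 5.62 RPKM in KD and 15.4, 6.94 and 16.6 RPKM in control libraries. Both genes were chosen after their values were seen. Across all 11701 genes the deviations of KD replicate 3 and control replicate 2 had a Pearson correlation of 0.42, given as a description, since genes of one library share its depth and preparation. The same correlation was 0.50 for KD replicate 2 and control replicate 3 and 0.29 for KD replicate 1 and control replicate 1, and the other 6 pairs of a KD and a control library had 0.03 or less. Whether KD and control libraries shared a culture in another order than their numbers is not given by the labels, and a difference between cultures cannot be told apart from the spread within a group described here.

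Markers of other cells differed between the same libraries. Of 6 progenitor and stromal markers, 5 had a mean of at least 1 RPKM, and *Dpp4* was near 0. Their summed RPKM was 352, 405 and 185 RPKM in KD replicates 1 to 3 and 421, 282 and 456 RPKM in the controls. The sum was lowest in the same libraries, and *Ly6a* made up most of it. *Ly6a* and *Cd34* were lowest in both libraries. *Pdgfra* was instead highest in KD replicate 3, and *Pdgfrb* and *Thy1* were highest in control replicate 2. Of 4 skeletal muscle markers, *Acta1* alone was above the minimum, and the sum was highest in these libraries with 1.40, 1.28 and 2.85 RPKM in KD and 2.30, 4.78 and 1.92 RPKM in control libraries, while the defining markers *Myog*, *Ckm* and *Myh4* were at or near 0. The 3 macrophage and leukocyte markers examined summed to 5.43, 4.92 and 3.26 RPKM in KD and 0.940, 2.80 and 1.14 RPKM in control libraries, with the defining *Ptprc* near 0. Of 3 red cell markers, *Hbb-bs* and *Hba-a1* were listed at 0, and the sum reached at most 0.786 RPKM. The part of these cells in the pattern was not tested. The summed adipocyte markers were highest in KD replicate 3 among the KD libraries and lowest in control replicate 2 among the controls.

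With all 6 libraries taken as unpaired, limma-trend on log2(RPKM + 1) with Benjamini-Hochberg adjustment over 11701 genes called 0 of the 31 genes higher and 2 lower at an adjusted p under 0.05. Among all genes tested, 11.5% were called higher and 12.4% lower. The standard error of the fold change had a median of 0.30 over the 31 genes and of 0.12 over all genes. At an unadjusted p under 0.05, 3 genes of the list passed, beside 38.9% of all genes tested, and robust empirical Bayes called 1 gene higher, beside 11.5%. The median log2 fold change was -0.13 over the 31 genes and 0.03 over all genes, with 9 positive and 22 negative values. Fold changes on this scale understate the change of weakly expressed genes. The groups did not overlap in 3 genes, 1 with every KD library above and 2 with every KD library below the controls, beside 22.9 and 21.9% of all genes tested. The summed macrophage and leukocyte markers and the summed adipocyte markers did not overlap between the groups either, the former being above and the latter below the controls in every KD library, with the values given above. Single markers differed from these sums. *Cidec* and *Lipe* overlapped between the groups, and the mean of *Cidec* was 108% of the control. *Ptprc*, near 0, was below the controls in every KD library, while *Cd68* and *Csf1r* were above them. The part of all these markers in the changes of the list was not tested.

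Because KD replicate 3 and control replicate 2 stood apart, each gene was also fitted without them. This fit, chosen after their values were seen, compared KD replicates 1 and 2 with control replicates 1 and 3. It called 4 genes of the list higher and 5 lower, beside 20.4 and 18.5% of all genes tested. The median log2 fold change of the list was -0.03 and the median standard error (SE) 0.13. Since the 2 libraries were left out for their values in the same genes, the smaller standard errors come in part from that choice. The calls and adjusted p-values of this fit, here and below, are given as a dependence on the libraries and not as separate evidence.

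**Figure D3:**
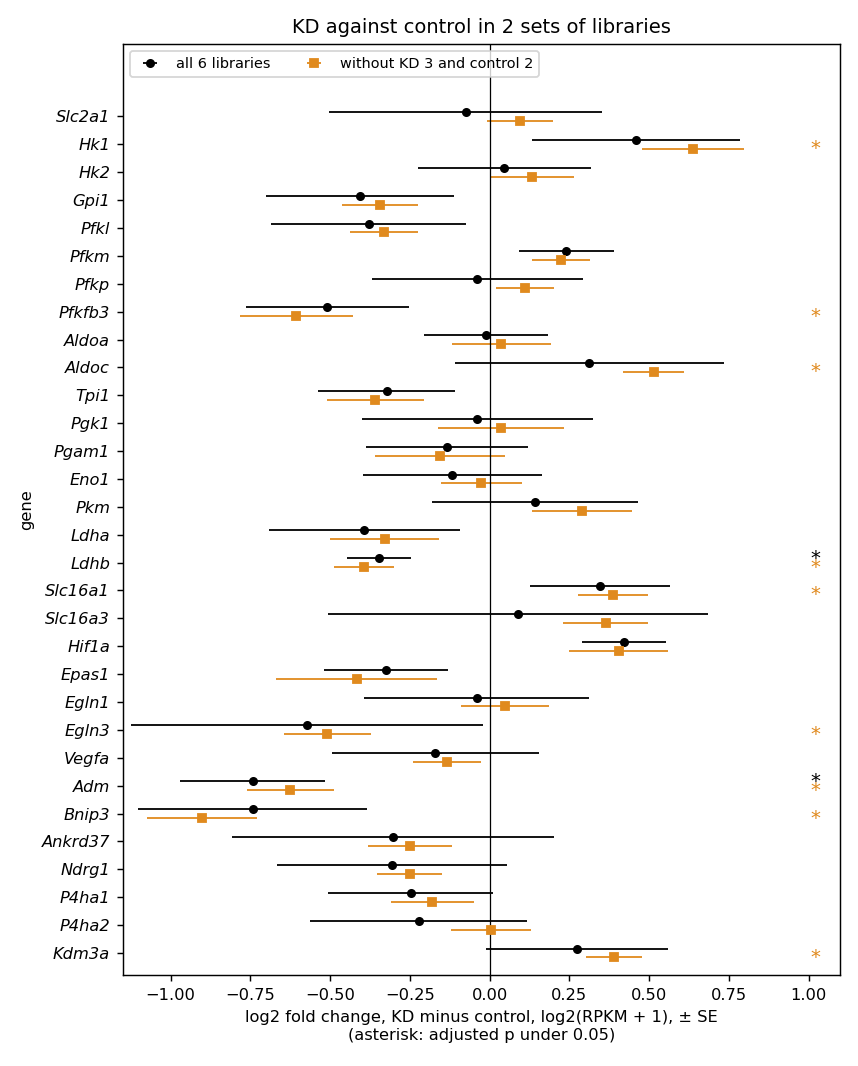
Log2 fold changes (KD minus control, log2(RPKM + 1)) with their standard errors for the 31 genes, with all 6 libraries (black circles) and without KD 3 and control 2 (orange squares), and an asterisk for an adjusted p under 0.05. *Ldhb* and *Adm* are called lower in both fits, and *Hk1*, *Aldoc*, *Slc16a1*, *Kdm3a*, *Pfkfb3*, *Egln3* and *Bnip3* only in the second.

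The 2 genes called lower were *Ldhb* and *Adm*. *Ldhb* encodes the heart type subunit of lactate dehydrogenase, which favours the use of lactate. It was expressed at 12.5, 12.5 and 13.0 RPKM in the KD libraries and at 16.6, 15.6 and 16.9 RPKM in the controls, and every KD library was below every control. The mean of *Ldhb* fell from 16.4 ± 0.708 RPKM (SD, n = 3) to 12.7 ± 0.260 RPKM (SD, n = 3), which is 77.4% of the control (log2 fold change -0.35, SE 0.10, limma adjusted p = 0.041). Without KD replicate 3 and control replicate 2 the log2 fold change was -0.39 (limma adjusted p = 0.022). Of the 50-base windows of its transcript, 27.0% recur in the transcript of another gene, so that reads can be shared.

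*Adm* encodes adrenomedullin, a secreted vasodilator peptide and HIF target. It had 7.36, 9.18 and 4.53 RPKM in the KD libraries and 12.2, 9.90 and 14.3 RPKM in the controls. The groups did not overlap, although the highest KD and the lowest control library were close. The mean fell from 12.1 ± 2.19 RPKM (SD, n = 3) to 7.02 ± 2.34 RPKM (SD, n = 3), 57.9% of the control (log2 fold change -0.74, SE 0.23, limma adjusted p = 0.048). Without the 2 libraries it was -0.62 (limma adjusted p = 0.017). With a single library left out, *Adm* had a limma adjusted p between 0.044 and 0.16 and *Ldhb* between 0.026 and 0.16, so that each call depended on the libraries present.

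**Figure D4:**
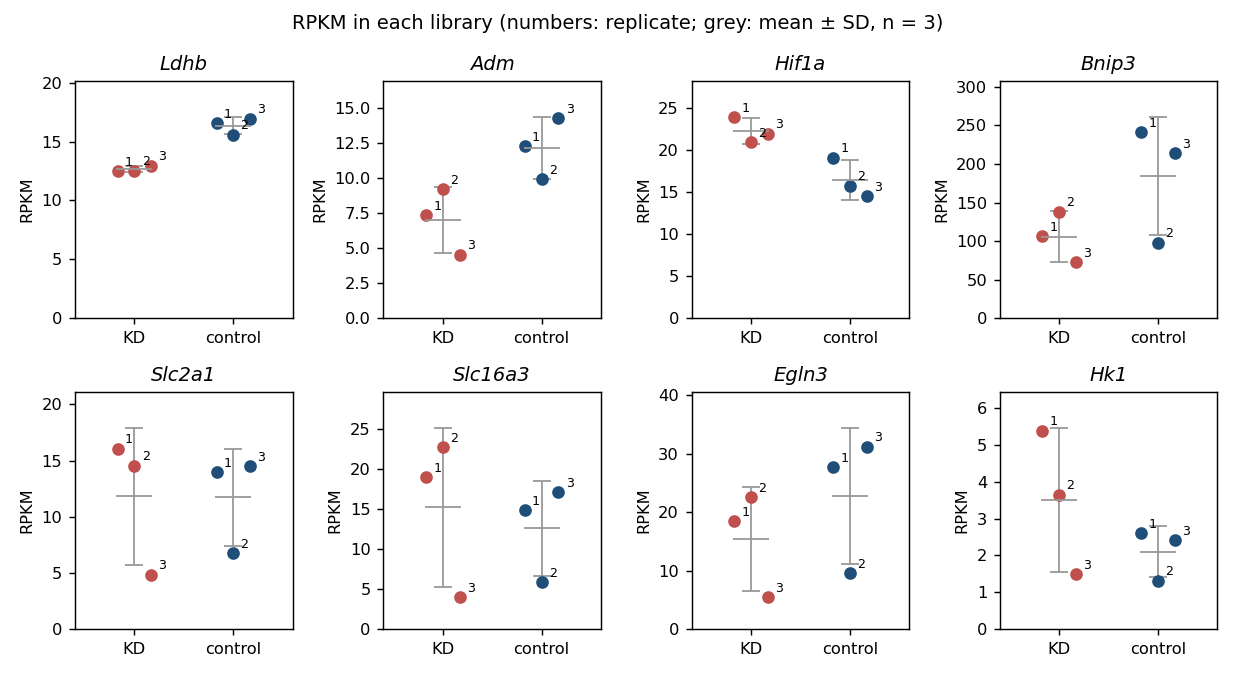
RPKM of 8 genes in each library (y axes start at 0), with KD in red, control in blue, the replicate number beside each point and the mean ± SD (n = 3) in grey. *Ldhb*, *Adm* and *Hif1a* do not overlap between the groups, while KD 3 and control 2 are the lowest points of their group in *Bnip3*, *Slc2a1*, *Slc16a3*, *Egln3* and *Hk1*.

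In uptake and the first steps, 0 of 4 genes passed the test. *Slc2a1*, with its values above, had a mean of 101% of the control (log2 fold change -0.08, SE 0.43). *Hk1*, the housekeeping hexokinase, had 5.39, 3.65 and 1.48 RPKM in KD and 2.60, 1.31 and 2.41 RPKM in control libraries. KD replicates 1 and 2 were above every control, and KD replicate 3 was below 2 of the controls. The log2 fold change of *Hk1* was 0.46 (SE 0.33, limma adjusted p = 0.32), and 0.64 without the 2 libraries (limma adjusted p = 0.026). *Hk2*, the hexokinase that insulin and HIF induce, had 23.7, 19.0 and 11.2 RPKM in KD and 19.4, 12.4 and 19.1 RPKM in control libraries. *Gpi1*, the isomerase that makes fructose 6-phosphate, had a mean of 28.2 ± 9.45 RPKM in KD and 37.1 ± 10.4 RPKM in controls (SD, n = 3), which is 75.9% (limma adjusted p = 0.34). It shares 19.3% of its 50-base windows with other genes. None of these 4 differences exceeded the spread between libraries with all 6 of them.

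At the phosphofructokinase step, 0 of 4 genes tested passed. The subunits differed in the sign of their fold change: *Pfkl*, the liver type, had a log2 fold change of -0.38, *Pfkp*, the platelet type, of -0.04 and *Pfkm*, the muscle type, of 0.24, with adjusted p from limma between 0.26 and 0.94. *Pfkfb3* makes fructose 2,6-bisphosphate, the activator of phosphofructokinase, and had 17.5, 12.1 and 10.2 RPKM in KD and 23.7, 12.9 and 21.9 RPKM in control libraries. Its mean was 68.2% of the control (log2 fold change -0.51, SE 0.26, limma adjusted p = 0.18), and control replicate 2 lay among the KD libraries. Without the 2 libraries the log2 fold change was -0.61 (limma adjusted p = 0.041). *Pfkfb4*, its relative, had means of 0.802 and 0.812 RPKM and was below the minimum of 1. These are averages over 11 listed transcripts, and its curated RefSeq mRNA had a mean of 1.69 RPKM in both groups.

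From aldolase to GAPDH, 0 of 3 genes tested passed. *Aldoa* had 633, 674 and 455 RPKM in KD and 604, 491 and 671 RPKM in control libraries, and its mean was 99.8% of the control. *Aldoc*, a paralog that is a HIF target, was far less abundant per length, with 3.83, 4.28 and 0.770 RPKM in KD and 2.44, 0.886 and 2.63 RPKM in control libraries. Its lowest KD library was below all controls and its other KD libraries were above them, so that the log2 fold change of 0.31 had a standard error of 0.42, and without the 2 libraries it was 0.51 (limma adjusted p = 0.010). *Tpi1*, which interconverts the triose phosphates, had 146, 178 and 117 RPKM in KD and 204, 139 and 211 RPKM in control libraries (limma adjusted p = 0.30). *Aldoa* and *Tpi1* share 13.5 and 7.51% of their 50-base windows with other genes. *Gapdh*, the dehydrogenase often used as a reference gene, was listed at a mean of only 0.977 RPKM in KD and 1.01 RPKM in controls over 23 accessions. Of its 50-base windows, 82.5% recur in transcripts of 218 other genes, and its listed level is uncertain for this reason.

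In lower glycolysis, 0 of 4 genes tested passed. *Pkm*, pyruvate kinase, had 244, 293 and 125 RPKM in KD and 207, 139.7 and 230.1 RPKM in control libraries. *Pgk1*, the first enzyme that yields ATP, had 27.0, 40.6 and 15.0 RPKM in KD and 31.7, 17.2 and 32.8 RPKM in control libraries. Both show a range within KD of more than the distance between the means. *Pgam1*, phosphoglycerate mutase, and *Eno1*, the ubiquitous enolase, had means of 92.0 and 94.1% of the control. The log2 fold changes of these 4 genes ranged from -0.13 to 0.14, with adjusted p from limma of 0.72 or more. *Eno2* and *Eno3*, the neuronal and muscle enolases, were below the minimum with means of at most 0.272 RPKM. *Eno1*, *Pgk1*, *Pgam1* and *Pkm* share 72.2, 68.0, 41.5 and 34.4% of their 50-base windows with other genes, and their levels are uncertain to that extent.

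Of the lactate genes, 1 of 4 passed the test, *Ldhb*. *Ldha*, the subunit that favours lactate production, was far more abundant per length, with 219, 278 and 132 RPKM in KD and 296, 191 and 326 RPKM in control libraries. Its mean was 77.6% of the control, almost the share of *Ldhb*, but its standard error of 0.30 was larger than the 0.10 of *Ldhb*, and it did not pass (log2 fold change -0.39, limma adjusted p = 0.36). *Ldha* shares 16.65% of its 50-base windows with other genes. *Slc16a1*, the lactate transporter MCT1, had 41.4, 45.0 and 27.5 RPKM in KD and 32.8, 22.7 and 32.8 RPKM in control libraries. Its log2 fold change of 0.35 did not pass with all libraries (limma adjusted p = 0.27) and was 0.39 without the 2 libraries (limma adjusted p = 0.038). For *Slc16a3*, KD replicates 1 and 2 were above every control and KD replicate 3 below every control, and the log2 fold change was 0.09 with a standard error of 0.60.

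Among the factors of the HIF pathway, 0 of 4 genes passed the test. *Hif1a*, the alpha subunit, had 23.9, 21.0 and 22.0 RPKM in KD and 19.1, 15.8 and 14.5 RPKM in control libraries. Every KD library was above every control, and neither KD replicate 3 nor control replicate 2 was the lowest. The means were 22.3 ± 1.50 and 16.5 ± 2.37 RPKM (SD, n = 3), or 135% of the control (log2 fold change 0.42, SE 0.13), and the adjusted p of 0.0504 from limma missed the threshold. It was 0.087 from limma without the 2 libraries and ranged from 0.045 to 0.19 with a single library left out. *Epas1*, which encodes HIF-2alpha, had 1.73, 0.586 and 1.08 RPKM in KD and 1.97, 1.30 and 1.59 RPKM in control libraries (limma adjusted p = 0.25). *Egln1*, the main prolyl hydroxylase, had 17.5, 13.6 and 6.53 RPKM in KD and 14.7, 7.76 and 15.0 RPKM in control libraries, with a mean of 100.2% of the control. *Egln3* had a mean of 67.8% of the control, a log2 fold change of -0.57 and a standard error of 0.55, and was -0.51 without the 2 libraries (limma adjusted p = 0.032). Both hydroxylases were thus lowest in KD replicate 3 and control replicate 2, and *Hif1a* and *Epas1* were not.

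Of the HIF targets outside glycolysis, 8 were tested and 1 passed, *Adm*. *Bnip3*, a mitochondrial receptor of mitophagy, had 106, 138 and 72.7 RPKM in KD and 241, 98.0 and 214 RPKM in control libraries. Its mean was 57.3% of the control, as low as that of *Adm*, but control replicate 2 lay among the KD libraries and it did not pass (log2 fold change -0.74, SE 0.36, limma adjusted p = 0.16). Without the 2 libraries the log2 fold change of *Bnip3* was -0.90 (limma adjusted p = 0.011). It shares 21.9% of its 50-base windows with other genes. *Kdm3a*, a histone demethylase, had 8.69, 8.52 and 3.88 RPKM in KD and 6.27, 3.75 and 6.39 RPKM in control libraries, and its log2 fold change of 0.27 became 0.39 without the 2 libraries (limma adjusted p = 0.019). *Vegfa*, the angiogenic growth factor, had 29.2, 30.9 and 14.8 RPKM in KD and 32.7, 17.6 and 33.4 RPKM in control libraries (limma adjusted p = 0.72). In *Vegfa* the pair of low libraries differed less from each other than from the rest of their own group. *Ndrg1*, a stress-responsive gene, had 1.81, 1.92 and 0.308 RPKM in KD and 2.20, 0.742 and 2.63 RPKM in control libraries. These are averages over 13 listed transcripts. Its curated RefSeq mRNA was higher, with 8.09, 8.76 and 1.55 RPKM in KD and 10.8, 3.62 and 11.5 RPKM in control libraries. The collagen prolyl hydroxylase subunits *P4ha1* and *P4ha2* had means of 85.2 and 89.9% of the control and adjusted p from limma of 0.50 and 0.66. *Car9*, the carbonic anhydrase used as a hypoxia marker, reached at most 0.242 RPKM in any library and was below the minimum.

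The 5 genes with a mean under 1 RPKM, *Pfkfb4*, *Gapdh*, *Eno2*, *Eno3* and *Car9*, were tested in a fit without this minimum, which called 4.71% of 38335 genes and none of these 5 (adjusted p from limma 0.51 to 0.98). Of the transcript accessions of the 36 genes, 264 had a mean of at least 1 RPKM. In 239 of them KD replicate 3 and control replicate 2 were the lowest of their group, beside 26.9% of all 67403 accessions at this level, and the KD mean was below the control mean in 154. Every KD value was above every control in 9 accessions, all of *Hif1a*, and below in 6, which were 3 of *Ldhb*, 2 of *Adm* and 1 of *Pfkfb3*, beside 21.6 and 23.6% of all accessions at this level. Accessions of a gene share reads and are not independent.

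Other genes of the same pathways were compared with the same test. Of 16 other genes of glucose metabolism tested, 2 were called higher and 4 lower, and of 27 other hypoxia response genes 1 higher and 1 lower, beside the 11.5 and 12.4% of all genes. *Slc2a4*, the insulin-responsive glucose transporter GLUT4, had 4.48, 4.51 and 5.62 RPKM in KD and 14.7, 9.60 and 13.8 RPKM in control libraries and fell to 38.3% (log2 fold change -1.21, SE 0.17, limma adjusted p = 0.0056). *Pfkfb1*, another bifunctional enzyme that makes fructose 2,6-bisphosphate, had 1.75, 1.79 and 2.52 RPKM in KD and 3.64, 3.19 and 3.72 RPKM in control libraries (log2 fold change -0.59, limma adjusted p = 0.015). *Mpc1*, a subunit of the mitochondrial pyruvate carrier, had 44.6, 58.3 and 51.9 RPKM in KD and 83.6, 63.1 and 85.2 RPKM in control libraries (log2 fold change -0.57, limma adjusted p = 0.041). In these 3 genes all KD libraries were below all controls. *G6pc3*, a glucose 6-phosphatase, fell by 0.32 on the log2 scale (limma adjusted p = 0.041).

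*Pgam5* and *Pgm1* were called higher, with log2 fold changes of 0.52 (limma adjusted p = 0.017) and 0.35 (limma adjusted p = 0.0499). *Pgam5* is a mitochondrial phosphatase of the mutase family and *Pgm1* a phosphoglucomutase that links glucose to glycogen. *Cited2*, which competes with HIF for its coactivator, had 11.95, 11.3 and 6.95 RPKM in KD and 4.27, 3.94 and 4.65 RPKM in control libraries, or 235% of the control (log2 fold change 1.04, limma adjusted p = 0.010). *Plod2*, a collagen lysyl hydroxylase, had 14.8, 16.7 and 11.1 RPKM in KD and 26.3, 17.8 and 29.3 RPKM in control libraries (log2 fold change -0.73, limma adjusted p = 0.041). For *Cited2* and *Plod2* the groups did not overlap although KD replicate 3 and control replicate 2 were the lowest of their group here too. A difference between the lists in their share of calls was not tested.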

How the data were processed

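RNA-seq of 3 *Ctcflos* KD and 3 NC ctrl libraries of primary brite adipocytes was analysed, with groups and replicate numbers from the sample labels. The authors deposited RPKM values in a table of 168326 lines, each for a RefSeq, Ensembl or GenBank accession, with replicates not pooled. For the splice analysis of these libraries, the study's methods state alignment by STAR to GRCm38, and for other libraries RPKM on transcripts of a Genomatix annotation. The steps from reads to this RPKM table, its strand setting included, are not given in the sources used here, and overlapping or near-identical genes can share reads. After removal of 305 repeated lines, RPKM was averaged over the accessions of each symbol, which lowers the value of genes with unused accessions, and log2(RPKM + 1) was fitted with limma-trend in genes of mean RPKM at least 1, two-sided, with Benjamini-Hochberg adjustment over 11701 genes. Genes below this minimum were taken from a fit without it. The methods were tested on simulated data. Depth was recovered from low values, of which at least 96.2% were whole reads within 0.1.

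The 36 genes and the lists of other pathway genes and cell markers were chosen with earlier results of these data known. All 36 were named by rule, as were the called genes of the 2 other lists, up to 8 per list. Those lists held 30 genes of glucose metabolism, 29 of them analysed here, and 32 genes of the hypoxia response. Shared sequence was counted as 50-base windows of the longest coding transcript in Gencode vM21. An exact permutation test of 3 libraries against 3 cannot go below p = 0.1 and was not used in the text. Alternatives were a pseudocount of 0.1, no minimum, scaling by the median of ratios, curated RefSeq mRNA accessions alone, the accession with the highest mean alone, the replicate number as a block, robust empirical Bayes, an adjusted p under 0.01, and each library left out in turn. Fits were run with limma 3.58.1 in R 4.3.3 with the data.table package, version 1.17.8, and summaries and figures were made with pandas 2.3.3, numpy 2.4.6 and matplotlib 3.10.9 in Python 3.11.15.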

Additional observations from a re-analysis of the deposited data

How the results depend on the processing

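With all 6 libraries, 0 genes of the list were called higher and 2 lower, and of the other pathway genes 3 higher and 5 lower. Of all genes tested, 11.5% were called higher and 12.4% lower in this fit. Genes of the list called higher numbered 1 with curated RefSeq mRNA accessions alone, with the accession of the highest mean alone and with robust empirical Bayes. The shares of all genes called higher in these fits were 14, 10.9 and 11.5%. Genes of the list called lower numbered 1 at a pseudocount of 0.1, 0 without a minimum and 0 at an adjusted p under 0.01. The share of all genes called lower was 12.1% at a pseudocount of 0.1 and 2.76% without a minimum. At an adjusted p under 0.01 the share of all genes was not counted, so the counts at that threshold have no comparison. Other pathway genes called higher numbered 5 with curated RefSeq mRNA accessions alone and 0 at an adjusted p under 0.01, where 1 was called lower, and 2 were called lower without a minimum. Without KD replicate 3 and control replicate 2, chosen after the values were seen, 4 genes of the list were called higher and 5 lower, and 12 and 11 of the other pathway genes. The shares of all genes rose to 20.4 and 18.5% in that fit.

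Whether the replicate numbers pair the samples is not given by the labels. The deviations of same-numbered libraries from the group had correlations of 0.29, -0.29 and -0.42. KD replicate 1 alone correlated best with its own number. Deviations within a group sum to 0, so the correlations between libraries depend on each other and cannot settle the pairing. KD replicates 2 and 3 correlated best with control replicates 3 and 2, a hint from the data and not from the design, and no fit with such an order was made. With a replicate block, where 6.38% of all genes were called higher and 7.91% lower, 0 genes of the list were called lower, and 1 of the other pathway genes was called higher and 2 lower.

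With each library left out in turn, 0 to 5 genes of the list were called higher (5 without KD replicate 3) and 0 to 2 lower, 0 to 12 other pathway genes higher (12 without KD replicate 3) and 1 to 5 lower. Of all genes, 1.11 to 23.3% were called higher and 2.40 to 17.6% lower in the same fits, with 23.3 and 17.6% without KD replicate 3. *Adm* and *Ldhb* were both not called without KD replicate 1 or any 1 of the controls, and *Bnip3* was called without control replicate 2. Without KD replicate 2, *Ldhb* was not called. The median log2 fold change of the list ranged from -0.38 (without control replicate 2) to 0.18 (without KD replicate 3). The sign of the log2 fold change turned in 16 genes, with ranges of -0.40 to 0.42 for *Slc2a1*, -0.17 to 0.33 for *Hk2*, -0.27 to 0.35 for *Pfkp*, -0.14 to 0.16 for *Aldoa*, -0.36 to 0.33 for *Pgk1*, -0.37 to 0.053 for *Pgam1*, -0.33 to 0.18 for *Eno1*, -0.10 to 0.50 for *Pkm*, -0.35 to 0.80 for *Slc16a3*, -0.33 to 0.34 for *Egln1*, -1.08 to 0.0014 for *Egln3*, -0.46 to 0.16 for *Vegfa*, -0.77 to 0.22 for *Ankrd37*, -0.63 to 0.072 for *Ndrg1*, -0.44 to 0.015 for *P4ha1* and -0.48 to 0.20 for *P4ha2*. None of these 16 was called with all libraries. Without KD replicate 3 and control replicate 2 together, the sign turned to 0.10 for *Slc2a1*, 0.11 for *Pfkp*, 0.037 for *Aldoa*, 0.035 for *Pgk1*, 0.049 for *Egln1* and 0.0048 for *P4ha2*. With the accession of the highest mean alone it turned to 0.0089 for *Pfkfb4*. Of 437 values of single genes under an alternative, 368 kept their sign and their side of the threshold. Apart from the settings that leave out libraries, the cause of these differences was not tested. At 1 RPKM, 1 kb of transcript holds 60.7 reads in the library of least depth, and the limits set by depth and by 3 libraries per group were not compared.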

Other observations

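The genes that shared the library pattern most strongly were ranked over all 11701 genes by the smaller of their distances in KD replicate 3 and control replicate 2, after the pattern had been seen. Of the 30 genes at the top, 5 were of the list (*Egln3*, *Ankrd37*, *Slc16a3*, *Slc2a1* and *Ndrg1*), 5 were other hypoxia response genes and 1 was another gene of glucose metabolism. The first was *Ndufa4l2*, a mitochondrial protein and HIF target, with 16.2, 22.6 and 2.10 RPKM in KD and 25.2, 5.52 and 29.1 RPKM in control libraries. The hypoxia-induced peptide *Apln* had 13.3, 16.9 and 3.76 RPKM in KD and 15.1, 5.07 and 17.6 RPKM in control libraries. *Mt1*, a metallothionein that binds zinc, had 162, 193 and 73.2 RPKM in KD and 216, 106 and 239.9 RPKM in control libraries. *Ucp1*, the uncoupling protein of thermogenic adipocytes, was in rank 30 with 23.6, 26.1 and 12.4 RPKM in KD and 67.0, 27.1 and 57.3 RPKM in control libraries.

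In the opposite direction, single genes were highest in both libraries, and 3 of them are given here as examples without a test of any theme. *Lyz2*, a lysozyme of myeloid cells, had 1.24, 1.70 and 12.8 RPKM in KD and 7.41, 24.5 and 6.90 RPKM in control libraries. *C1qb*, a complement gene of macrophages, had 0.0980, 0.167 and 2.70 RPKM in KD and 0.277, 2.66 and 0.296 RPKM in control libraries. *Acta2*, the smooth muscle actin, had 17.2, 22.8 and 48.2 RPKM in KD and 31.6, 83.6 and 38.8 RPKM in control libraries. The macrophage markers *Cd68* (4.12, 3.44 and 2.16 RPKM in KD) and *Csf1r* were instead lowest in KD replicate 3. In the controls both were highest in replicate 2, with 0.657, 1.92 and 0.664 RPKM for *Cd68*. The genes of both paragraphs were named after their values were seen, and no cause of the pattern was tested.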
